A study of Mus musculus with 8 samples.

Results

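The nuclear genes of oxidative phosphorylation were followed by RNA-seq in mouse embryonic stem cells (mESCs). Members were the symbols of the count tables that begin with Nduf, Uqcr, Atp5, Cox4i, Cox5, Cox6, Cox7 or Cox8, together with Sdha, Sdhb, Sdhc, Sdhd and Cycs, leaving out symbols that contain -ps. The rule gave 98 of 55291 symbols, and 89 of these were among the 16371 genes with enough counts to be tested.

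In the DHX35-dTAG line the gene for the RNA helicase DHX35 carries a knocked-in tag, and in the GPATCH1-dTAG line the gene for its G-patch partner GPATCH1 does. The compound dTAG-13 directs a tagged protein to degradation. Cells of either line received DMSO or 200 nM dTAG-13 over 4 h, giving 4 groups of 2 libraries. The labels name the cells as E14 and the growth protocol mentions R1. All 4 groups carry a tagged allele. An untagged line was not analysed here, so the tag, the picked colony and the line cannot be told apart. The tagged colonies grew from single cells, and the labels do not say which clone gave a library or whether replicates were separate cultures, so p-values measure only the spread between these libraries.

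Oxidative phosphorylation is the last stage of respiration in the inner mitochondrial membrane. Complexes I and II take electrons from NADH and succinate, complex III passes them to cytochrome c, complex IV gives them to oxygen, and complex V, the ATP synthase, uses the proton gradient built on the way to make ATP. Most subunits are encoded in the nucleus and imported, a few are encoded by the mitochondrial genome, and the nuclear regulators NRF1 and GABP (an ETS factor) are known to drive many of the nuclear genes. Embryonic stem cells use glycolysis and also express the whole respiratory chain.

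Total counts ran from 12014203 to 14994173 per library. Members took 0.701% of the counts at the lowest (Wilson 95% interval 0.696 to 0.705) and 1.06% at the highest (1.06 to 1.07), and these intervals cover counting error only. Ribosomal RNA took 1.27% to 20.9% of the counts, and the library with the lowest member share was the one with the highest ribosomal share. Levels are given as CPM, counts scaled to a common library size with TMM factors. All 12 embryonic stem cell markers searched, among them Pou5f1, Nanog and Sox2, were expressed, with a summed level of 6380 to 7260 CPM per library. Markers of fibroblast feeders summed to 10.7 to 15 CPM with 2 of 8 at 0 in every library, those of the germ layers to 15.7 to 19.2 CPM, of primitive endoderm to 6.71 to 9.99 CPM and of trophoblast to 22.6 to 31.9 CPM. The mRNAs of the tagged genes do not report on the protein: Gpatch1 stood at 23.1 to 25.6 CPM in the DHX35-dTAG line and at 6.88 to 7.3 CPM in the GPATCH1-dTAG line, and Dhx35 at 72.1 to 84.6 CPM and 58 to 64.8 CPM, with no treatment difference called for either. Between lines both were called by edgeR, Gpatch1 at a log2 difference of -1.75 (SE 0.08, adjusted p = 6.5e-06) and Dhx35 at -0.40 (adjusted p = 0.021), so the GPATCH1-dTAG line held less of both mRNAs also with DMSO.

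One library, replicate 1 of the DMSO-treated DHX35-dTAG cells (DHX35 DMSO 1), stood apart from the other 7. Its members summed to 10016 CPM against 8034 to 8600 CPM in the others, and it correlated less well with the rest (mean 0.98, where each of the others reached 0.991 to 0.992). Reads of mitochondrial mRNAs made up 0.272% of its counts against 0.758% to 1.13%, and small RNAs 0.366% against 0.12% to 0.144%. Of the 89 members tested, 59 had their highest and 15 their lowest level of all 8 libraries there. The 33 members (37.1%) that lay more than 0.5 on the log2 scale from the mean of the other libraries compare with 21.3% of all genes tested, and in any other library 0 to 2 members did so. It is 1 of the 2 controls of the DHX35-dTAG line.

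**Figure D1:**
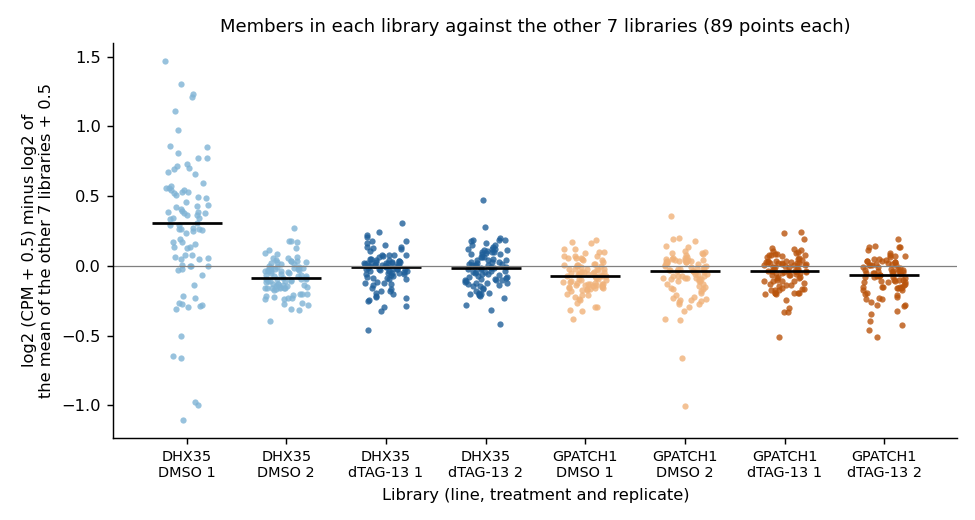
Each point is 1 of the 89 members tested, placed by the log2 of its CPM plus 0.5 in the library on the x axis minus that of the mean of the other 7 libraries, and bars mark medians. DHX35 DMSO 1 has a median of 0.31 and the widest spread, with 33 members more than 0.5 from the others, against 0 to 2 in each other library.

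The median over members was above 0 in every complex, as log2 of the CPM over the mean of the other 7 libraries. It was 0.40 for the assembly factors of complex I, 0.37 for its accessory subunits, 0.17 for its core subunits, 0.24 for complex II, 0.34 for complexes III and IV, 0.29 for complex V and 0.08 for Cycs. Of the 7 core subunits of complex I, 4 were above all other libraries. The highest were Atp5e (1.48), which encodes the epsilon subunit of the ATP synthase, Ndufa2 (1.32), an accessory subunit of complex I, Atp5h (1.24), a stator subunit of the ATP synthase, Atp5mpl (1.22), a small membrane subunit of the same enzyme, Ndufa4l2 (1.17), with 68 counts in all libraries together, and Cox6a1 (1.11) of complex IV. The lowest were Atp5g2 (-1.11), which encodes the c subunit of the ATP synthase ring, Ndufb4 (-1.03) of the membrane arm of complex I, Cox7a2 (-0.99) of complex IV, Cox7b (-0.67) and Atp5c1 (-0.65). Subunits of 1 enzyme thus lay at both ends of the range. The deviation was larger in GC-rich transcripts: its median was 0.13 in the 30 members of lowest GC content, 0.26 in the next 29 and 0.46 in the 30 of highest GC content. Across all 16179 genes with a known sequence its correlation with GC content was 0.32 (Pearson, across genes, which are not replicates), and across the 89 members it was 0.2. Transcript length had a relation of like size among members (Pearson -0.22), with medians of 0.33 in the 30 shortest, 0.37 in the next 29 and 0.18 in the 30 longest. The part of GC content or length in the deviation was not tested.

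The median coefficient of variation over the other 7 libraries was 5.89% for members and 10.1% for all genes tested, but the members were also more abundant, with a median of 61.4 CPM against 13.7 CPM. Of the tested members, Ndufs3, a core subunit of complex I, had the lowest coefficient of variation, from 47.8 to 50.8 CPM in those 7 libraries.

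Levels of different genes were compared as CPM per kilobase of transcript (CPM per kb), using the shortest principal transcript of each gene. They are means of the 7 libraries other than DHX35 DMSO 1. For 9 of the tested members, among them Uqcrq, Atp5g1, Atp5g2 and Ndufb2, another principal transcript is more than 1.5 times as long, and their levels per kb would be lower with it. The medians were 156 CPM per kb for complex IV, 138 for complex V, 116 for complex III, 64.4 for complex II, 57.8 for the core subunits of complex I, 46.5 for its accessory subunits and 10.6 for its assembly factors, which do not remain in the finished enzyme. Complex IV thus had the highest median, and complex V had Atp5b, the highest single gene, and the largest sum, 44.8% to 46.4% of all member CPM in every library.

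**Figure D2:**
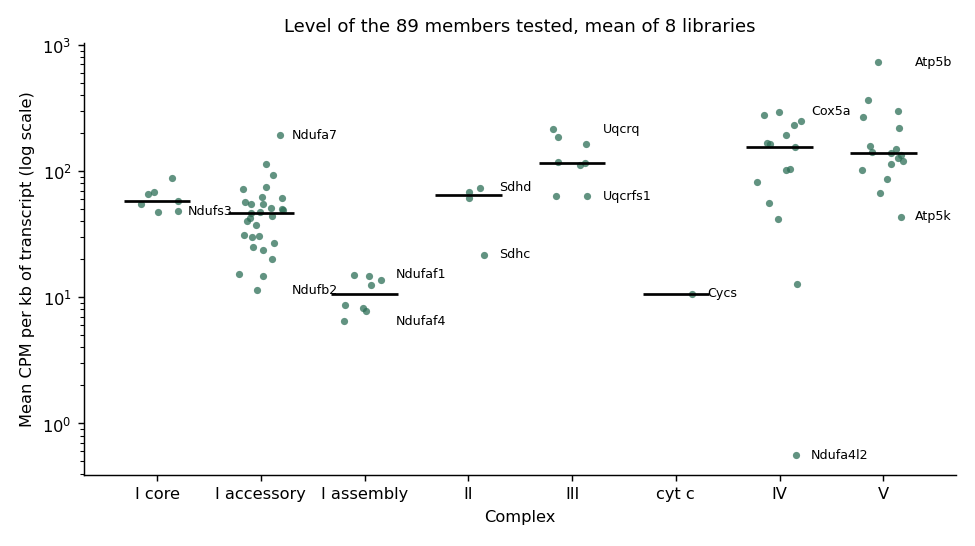
Each point is a tested member, placed by its mean CPM per kb of transcript on a log axis, by complex. Means are over the 7 libraries other than DHX35 DMSO 1 (the title names 8), and bars mark the median of each complex. Names mark the ends of the groups, except the upper end of the complex I core, from Atp5b at 726 to Ndufa4l2 at 0.561 CPM per kb.

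In complex V the catalytic subunits led: Atp5b (beta subunit) stood at 726 CPM per kb and Atp5a1 (alpha subunit) at 363. Their ranges over all 8 libraries, 697 to 807 and 340 to 444, did not overlap. Together these 2 genes held 26.4% to 28.9% of the member CPM. The lowest member was Atp5k, a small membrane subunit, at 43.5 CPM per kb.

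In complex IV, Cox5a (294 CPM per kb) and Cox4i1 (280), both structural subunits around the catalytic core, were highest, and their ranges over the libraries overlapped. In complex III the small subunits Uqcrq (214) and Uqcr10 (186) led. Uqcrfs1 (63), which encodes the Rieske iron-sulfur protein, was lowest, close to Uqcrc2 (63.5). Cycs, the gene for cytochrome c, stood at 10.7 CPM per kb, at the level of the assembly factors.

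In complex I the accessory subunits Ndufa7 (192 CPM per kb) and Ndufa11 (113) led and Ndufb2 (11.4) was the lowest of that group. Of the core subunits, Ndufs7 stood at 68.6 and Ndufs3 was lowest at 47.4. Of the assembly factors, Ndufaf1 (15.1) and Ndufaf5 (14.8) were highest and Ndufaf4 (6.48) lowest. In complex II the membrane anchor Sdhd (73.7), the flavoprotein Sdha (67.6) and the iron-sulfur protein Sdhb (61.2) lay close together, and the other anchor, Sdhc, was lower at 21.7 over a transcript of 3171 bases.

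Several subunits have isoforms encoded by separate genes. The widely expressed forms held at least 99% of the CPM per kb of their pair or trio in every library for Cox4i1 against Cox4i2 (lung and hypoxia), Cox6a1 against Cox6a2 (muscle), Cox7b against Cox7b2, Cox8a against Cox8b and Cox8c, and Ndufa4 against Ndufa4l2 (hypoxia). The rare forms had 37 (Cox4i2), 12 (Cox8c), 10 (Cox6a2), 5 (Cox7b2), 2 (Cox8b) and 68 (Ndufa4l2) counts over all 8 libraries together. Of these Ndufa4l2 alone passed the filter on low counts. The other untested members were Cox6c2, Ndufs6b, Ndufb4c and Ndufa11b, with 2 to 26 counts each, which the annotation lists as processed pseudogenes.

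Other sets were mixed. Atp5g1, Atp5g2 and Atp5g3 encode the same mature c subunit and shared its mRNA at 37.1% to 39.1%, 26.4% to 29.6% and 33.3% to 34.5% of the CPM per kb in 7 libraries. In DHX35 DMSO 1 the shares were 44.6%, 11.4% and 44%. Cox7a2 (56.3% to 63.6%) exceeded Cox7a2l (28.6% to 35.5%), a paralogue known from respiratory supercomplexes, in the same 7 libraries, and their order was reversed in DHX35 DMSO 1, at 37% and 49.8%. The muscle form Cox7a1 held 6.5% to 13.2%. Cox6b2, a form best known from testis, held 15.8% to 24% of its pair with Cox6b1.

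**Figure D3:**
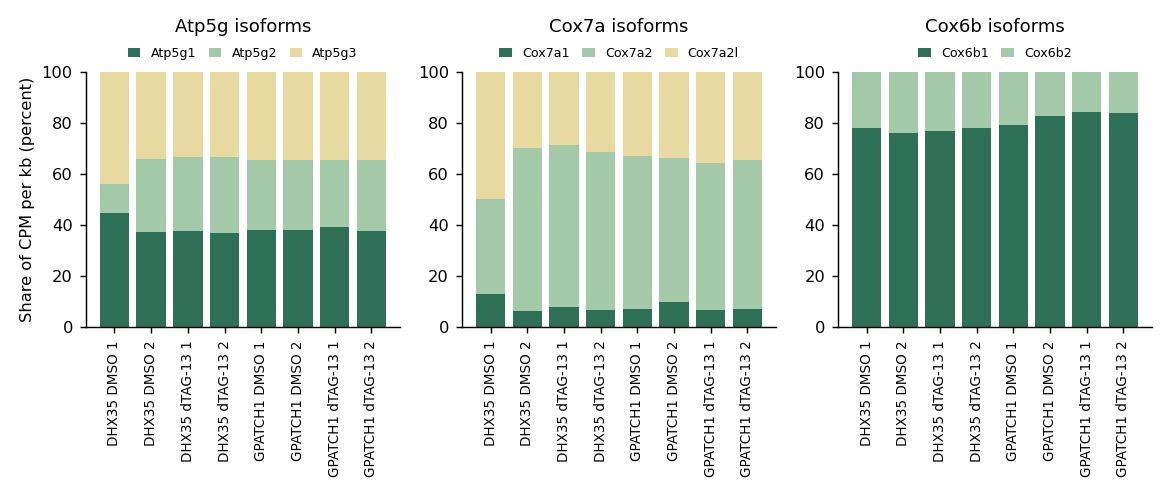
Stacked bars give the share of each isoform in the summed CPM per kb of its set (percent, y axis) in each of the 8 libraries (x axis). The first bar, DHX35 DMSO 1, differs from the others in the Atp5g and Cox7a sets, and the Cox6b2 share is 21.9% to 24% in the DHX35-dTAG line and 15.8% to 20.8% in the GPATCH1-dTAG line.

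The first comparison asked whether 4 h of dTAG-13 altered these genes in the DHX35-dTAG line. By complex, the members summed to 4482 and 3612 CPM in the DMSO libraries and 3769 and 3738 CPM in the dTAG-13 libraries for complex V, and to 1601 and 1313 CPM against 1380 and 1378 CPM for complex IV. For complex III the sums were 1067 and 802 CPM against 821.5 and 818.1 CPM. In each of these complexes the higher DMSO value was that of DHX35 DMSO 1, and both dTAG-13 libraries lay between the DMSO libraries. In bulk RNA, fewer cells of a type and less RNA per cell cannot be told apart, and the values are relative to the other RNAs of the library.

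No member was called in this comparison. The edgeR quasi-likelihood test called 0 of 89 members at an adjusted p under 0.05, as it did 0 of all 16371 genes (0%), and DESeq2 called 0 members beside 0.00611% of genes. At an unadjusted p under 0.05 there were 7 members (7.87%), all lower, beside 5.39% of all genes: Atp5e, Atp5h, Atp5mpl, Ndufa8, Ndufb6, Ndufb9 and Uqcrfs1. The smallest adjusted p of a member was 0.71. The median log2 difference of members was -0.14, with 61 below 0 and 28 above. Over all genes the median was -0.01 and 51.5% were below 0. Without DHX35 DMSO 1 the median was 0.05 over 90 members tested, with 67 above 0 beside 50.6% of all genes. No member was called then, beside 0.0117% of all genes, and the remaining DMSO library was assumed to vary like the other groups. Without DHX35 DMSO 2 instead, the median was -0.27 and 54 members were called, beside 28.8% of all genes. The sign of the median in this line differed between the fits with 1 and with the other DMSO library.

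The members with the lowest log2 differences were high in 1 library. CPM are given in the order DHX35 DMSO 1 and 2, DHX35 dTAG-13 1 and 2, GPATCH1 DMSO 1 and 2, and GPATCH1 dTAG-13 1 and 2. Atp5e stood at 101, 38.5, 36.2, 34, 34.9, 34.8, 39.8 and 34.6 CPM. Only the first value was away from the others, and the log2 difference of -0.98 (SE 0.35, edgeR adjusted p = 0.71) became -0.13 without that library. Atp5h stood at 158, 65.8, 58.8, 68, 65.4, 68.4, 75.3 and 67.6 CPM, a difference of -0.82 (SE 0.32) that became -0.05. Atp5mpl stood at 86, 39.2, 36.8, 37.7, 35.3, 37.3, 35 and 37.2 CPM, a difference of -0.75 (SE 0.29) that became -0.07.

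The members with the highest log2 differences were low in that library. Atp5g2 stood at 44.9, 95.8, 109, 102, 92.2, 90.1, 91.8 and 98.3 CPM, with a log2 difference of 0.58 (SE 0.27) that became 0.14 without DHX35 DMSO 1. Cox7a2 stood at 34.2, 70.6, 72.6, 71.1, 67.5, 64.6, 62.5 and 65 CPM, a difference of 0.45 (SE 0.26) that became 0.03. Ndufb4 stood at 14.5, 32.5, 30.5, 29.7, 30.9, 29.5, 24.9 and 28.4 CPM, and its difference of 0.35 (SE 0.29) turned to -0.11. Complex II, which is encoded wholly in the nucleus, held both kinds of member. Sdha stood at 193, 191, 195, 199, 193, 193, 205 and 196 CPM (0.04, SE 0.07). Sdhd stood at 90.8, 86.9, 91.7, 85.2, 93.6, 88.9, 97.6 and 91.1 CPM (-0.01, SE 0.09), so neither was apart in DHX35 DMSO 1. Sdhb, at 98, 66.7, 69.7, 74.5, 65.9, 69.4, 74.6 and 68.6 CPM, and Sdhc, at 98.9, 67.9, 72.3, 70, 65.5, 67, 70.2 and 68 CPM, were both highest there. Their log2 differences of -0.19 (SE 0.16) and -0.23 (SE 0.15) became 0.11 and 0.07 without that library.

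Abundant members of the other complexes also differed in how far DHX35 DMSO 1 set their values. Atp5b stood at 1550, 1330, 1410, 1380, 1370, 1370, 1490 and 1380 CPM, with a log2 difference of -0.04 (SE 0.09) in the DHX35-dTAG line. Cox4i1 stood at 340, 190, 209, 199, 207, 213, 228 and 214 CPM, with -0.38 (SE 0.21), which became 0.11 without that library. Uqcr10 stood at 138, 83.2, 80.7, 88.1, 79.4, 73.3, 82.3 and 78 CPM, with -0.39 (SE 0.19), which became 0.02. In all 3 the first library was the highest of the 8, by little in Atp5b and by far in Cox4i1 and Uqcr10. The complex I core subunit gene Ndufs7 stood at 70.4, 50.9, 58.4, 50.3, 49.8, 53.6, 51.7 and 49.3 CPM, with -0.16 (SE 0.15), which became 0.10 without DHX35 DMSO 1. Cycs, the carrier between complexes III and IV, stood at 35.3, 33.5, 33.2, 33.3, 30.5, 35.3, 32.8 and 35 CPM, with -0.05 (SE 0.11), and its 8 libraries lay close together.

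The groups of 2 libraries did not overlap for 12 members that were higher and 11 that were lower after dTAG-13 in this line (13.5% and 12.4% of members), near the 14.6% and 14.1% of all genes. Among the higher were Atp5g2, Cox7a2, Sdha and the complex III core protein gene Uqcrc2 (99.7 and 115 against 117 and 121 CPM), and among the lower Atp5e, Atp5mpl, Ndufa8 and the Rieske gene Uqcrfs1 (143 and 89.2 against 86.7 and 82.6 CPM).

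The second comparison asked the same of the GPATCH1-dTAG line, with its own 2 DMSO libraries as controls. These held 4.23% and 20.9% ribosomal RNA, against 1.27% and 2.02% in the dTAG-13 libraries, so the ribosomal share ran with treatment, and its part in the differences was not tested. Complex V summed to 3743 and 3762 CPM with DMSO and 3989 and 3827 CPM with dTAG-13. Complex IV summed to 1346 and 1345 CPM against 1339 and 1342 CPM, and complex III to 814.5 and 794.5 CPM against 851 and 819.8 CPM. The sums of complexes V and III were higher in both dTAG-13 libraries, and those of complex IV slightly lower. The summed core subunits of complex I (617.8 and 637.7 against 664 and 643.2 CPM) and those of complex II (418 and 417.8 against 447.4 and 424.1 CPM) were higher in both dTAG-13 libraries too. The sums of the accessory subunits of complex I (1126 and 1147 against 1157 and 1129 CPM) and its assembly factors (117.5 and 116.4 against 119.6 and 112.7 CPM) overlapped. These sums were not tested.

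No member was called here. The edgeR test called 0 of 89 members and 0 of all genes (0%), DESeq2 called 0 members and 0 genes, and the smallest adjusted p of a member was 1. In the fit that left out DHX35 DMSO 1, 0 members were called beside 0.299% of all genes. At an unadjusted p under 0.05 there was 1 member, Cox6b2 (1.12% of members), against 2.97% of all genes. The median log2 difference of members was 0.01, beside 0 over all genes, with 49 above and 40 below 0, and 83 of 89 lay within 0.2 of 0. Approximate 95% intervals were taken from the SE with a normal quantile, so they are narrower than the quasi-likelihood test would give. Their median half-width was 0.28 on the log2 scale. For 88 of 89 members the interval lay wholly between -1 and 1, the exception being Ndufa4l2, which had 68 counts in all.

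Among members with a mean of at least 10 CPM, the largest difference in this line was 0.35 in size. Cox6b2, whose product bridges the complex IV dimer, stood at 20.5 and 17.7 CPM with DMSO and 15 and 15 CPM with dTAG-13, a log2 difference of -0.35 (SE 0.15, edgeR adjusted p = 1). Ndufaf8, an assembly factor of complex I, stood at 10.4 and 9.88 against 8.72 and 7.84 CPM (-0.29, SE 0.20), and Atp5k at 15.2 and 18 against 13.4 and 14.3 CPM (-0.26, SE 0.20). In all 3 the treated libraries were below both controls, and in none was the difference called.

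On the other side, Ndufa8, an accessory subunit of complex I, stood at 35.6 and 34.4 against 41.8 and 39.2 CPM (0.21, SE 0.21). Ndufa2 stood at 31.6 and 25.5 against 34.8 and 29.7 CPM (0.17, SE 0.34), with overlapping groups, and the assembly factor Ndufaf5 at 17 and 17.4 against 20.2 and 17.9 CPM (0.15, SE 0.12). Groups did not overlap for 17 members that were higher (19.1%) and 12 that were lower (13.5%), beside 21.5% and 20.3% of all genes. The 17 included Atp5a1, Atp5b, Cox4i1, Cox5a and Sdhc, and the 12 included Atp5j, Cox7b, Ndufa4 and Ndufaf4.

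**Figure D4:**
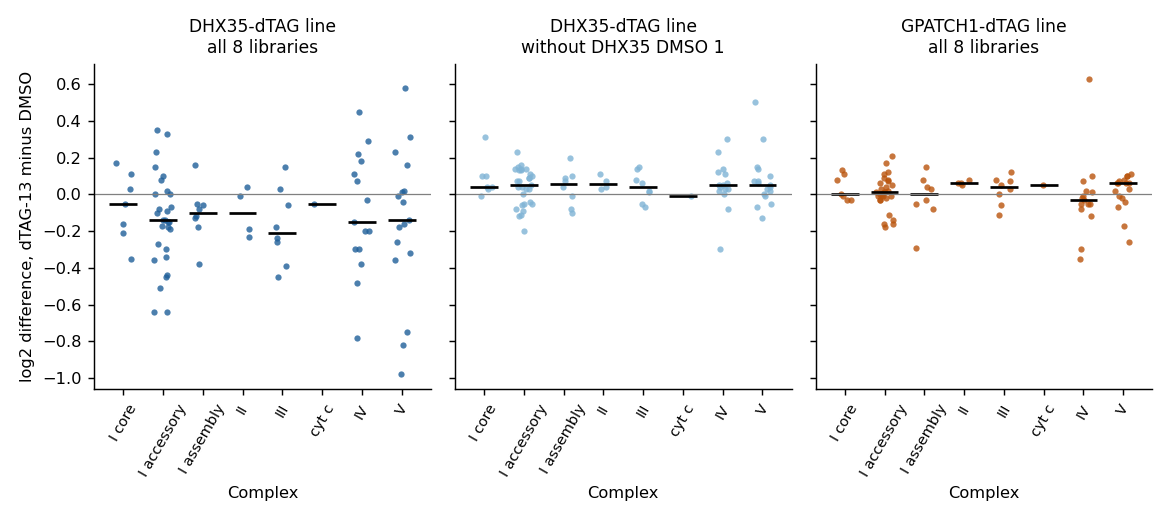
Log2 difference of dTAG-13 minus DMSO (y axis) for the 89 members by complex (x axis), in the DHX35-dTAG line with all libraries, in that line without DHX35 DMSO 1, and in the GPATCH1-dTAG line, with bars at the medians. The first panel spans -0.98 to 0.58, and the GPATCH1 panel lies within -0.35 and 0.21 except for the low-count gene Ndufa4l2 at 0.63.

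By complex, the medians in the DHX35-dTAG line were -0.05 for the complex I core, -0.14 for accessory subunits, -0.10 for assembly factors, -0.10 for complex II, -0.21 for complex III, -0.15 for complex IV and -0.14 for complex V. Without DHX35 DMSO 1 they lay between 0.04 and 0.06, with Cycs at -0.01. In the GPATCH1-dTAG line the medians ran from -0.03 for complex IV to 0.06 for complexes II and V, and all 4 complex II genes were above 0 (0.05 to 0.08).

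The responses of the lines were compared directly. The edgeR interaction test (GPATCH1-dTAG response minus DHX35-dTAG response) called 0 of 89 members and 0 of all genes (0%), and DESeq2 called 0 members beside 0.055% of genes. At an unadjusted p under 0.05 there was 1 member (1.12%), beside 3.9% of all genes. That member was Ndufa8, at a difference of 0.72 (SE 0.30, adjusted p = 0.86), which became 0.26 without DHX35 DMSO 1. Among members with a mean of at least 10 CPM, the largest differences were those of Atp5e (1.08, SE 0.49), Atp5h (0.91, SE 0.45) and Ndufa2 (0.82, SE 0.47) upward and Ndufb4 (-0.54, SE 0.40), Atp5g2 (-0.52, SE 0.37) and Cox7a2 (-0.50, SE 0.36) downward. They shrank without DHX35 DMSO 1, to 0.23 for Atp5e, 0.15 for Atp5h, 0.03 for Ndufa2 and -0.08 for each of Ndufb4, Atp5g2 and Cox7a2. The median over members was 0.10, and it was -0.04 without DHX35 DMSO 1 and 0.25 without DHX35 DMSO 2. Without the first, 0 members were called beside 0.0528% of all genes, and without the second 38 beside 20.9%.

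The last comparison set the GPATCH1-dTAG line against the DHX35-dTAG line over both treatments, 4 libraries on each side. The edgeR test called 0 members, where it called 128 of 16371 genes (0.782%), and DESeq2 called 1 member, Cox6b2, beside 1.39% of genes. At an unadjusted p under 0.05 there were 7 members (7.87%), all lower in the GPATCH1-dTAG line, beside 15.3% of all genes. The median log2 difference was -0.09 beside -0.01 over all genes, and it was -0.01 without DHX35 DMSO 1.

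Cox6b2 came closest to a call. It stood at 31.1, 23.2, 21.8 and 22.1 CPM in the DHX35-dTAG line and at 20.5, 17.7, 15 and 15 CPM in the GPATCH1-dTAG line, with no overlap. The difference was -0.52 (SE 0.10, edgeR adjusted p = 0.053), and -0.42 (adjusted p = 0.0039) without DHX35 DMSO 1. Measured within each library, its share of the Cox6b pair was 21.9%, 24%, 23.2% and 22.2% in the DHX35-dTAG line and 20.8%, 17.5%, 15.8% and 16.1% in the other. The partner Cox6b1 stood at 95.9 to 147 CPM and 104 to 111 CPM, with overlap (-0.05, SE 0.12, adjusted p = 0.84).

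The other members with a small unadjusted p were Uqcrq (-0.22, SE 0.06, edgeR adjusted p = 0.18), the assembly factors Ndufaf1 (-0.26), Ndufaf3 (-0.31) and Ndufaf8 (-0.37), and the accessory subunits Ndufa13 (-0.23) and Ndufa2 (-0.60). Leaving out DHX35 DMSO 1 gave -0.17 for Uqcrq, -0.18 for Ndufaf1, -0.23 for Ndufaf3 and Ndufaf8, -0.16 for Ndufa13 and -0.20 for Ndufa2, and none was called. Ndufa2 stood at 81.4 CPM in that library and at 25.5 to 39.2 CPM in the other 7. Ndufaf3, which acts early in complex I assembly, stood at 15.3, 12.3, 12.7 and 13.3 CPM in the DHX35-dTAG line and 10.6, 10.7, 11.3 and 10.6 CPM in the GPATCH1-dTAG line, without overlap. Groups of 4 did not overlap for 7 members that were lower (7.87%) and 1 that was higher (1.12%), beside 6% and 5.62% of all genes. The higher member was Ndufa10, at 77.2 to 93 CPM against 93.4 to 99.8 CPM, an accessory subunit of complex I. Atp5e (-0.46, SE 0.29) had the next lowest difference after Ndufa2 and Cox6b2, and Atp5c1 (0.17), Cox7b (0.16) and Ndufa10 (0.12) had the highest, among members with a mean of at least 10 CPM. This order rests on DHX35 DMSO 1, without which the values were -0.01 for Atp5e, 0.03 for Atp5c1, 0.00 for Cox7b and 0.07 for Ndufa10. Without DHX35 DMSO 1, Atp5l (0.18, adjusted p = 0.04) and Atp5a1 (0.14, adjusted p = 0.039), both of complex V, were called besides Cox6b2, beside 5.95% of all genes.

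Genes around the members were read from fixed lists. Of 41 other nuclear respiratory chain genes tested, mostly assembly factors, the edgeR test called 0 in any of the 4 comparisons, with medians of -0.08 in the DHX35-dTAG line, 0.05 in the GPATCH1-dTAG line and -0.11 between lines. The first and last of these became 0.04 and -0.06 without DHX35 DMSO 1. The same count was 0 for 77 mitochondrial ribosomal protein genes (medians -0.04, 0.02 and -0.06, the first and last becoming 0.07 and -0.01 without that library), for 18 enzymes of the tricarboxylic acid cycle (0.02, 0.03 and 0.10) and for 14 regulators of mitochondrial biogenesis (0.04, -0.01 and 0.04). Of 19 glycolysis genes, 18 were above 0 in the GPATCH1-dTAG line with a median of 0.09 and none called, beside 50.8% of all genes above 0. In the DHX35-dTAG line 9 of 19 were above 0 (median 0.00), or 16 of 19 (median 0.06) without DHX35 DMSO 1, with none called. Between lines 1 was called, Ldha, which encodes lactate dehydrogenase A, at 584 to 651 CPM in the DHX35-dTAG line and 752 to 805 CPM in the GPATCH1-dTAG line (log2 difference 0.30, SE 0.06, edgeR adjusted p = 0.048). Without DHX35 DMSO 1, when 5.95% of all genes were called between lines, the counts were 8 of 19 glycolysis genes, 2 of 18 cycle enzymes, 2 of 41 other respiratory chain genes, 1 of 77 ribosomal protein genes and 1 of 14 regulators.

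The mRNAs encoded in the mitochondrial genome, whose products sit in the same complexes, spread more widely between libraries than the nuclear members. Their counts divided by those of the members were 0.255 and 1.06 in the DHX35 DMSO libraries, 1.07 and 1.37 after dTAG-13, 1.23 and 1.47 in the GPATCH1 DMSO libraries and 0.817 and 1.28 after dTAG-13. DHX35 DMSO 1 was lowest on this ratio and highest in the nuclear members. Of 10 mitochondrial mRNAs tested, 9 were above 0 in the DHX35-dTAG line (median 0.92, and 0.53 without DHX35 DMSO 1) and 9 below 0 in the GPATCH1-dTAG line (median -0.44), and none was called by edgeR in either. At an unadjusted p under 0.05 there were 6 of 10 in the DHX35-dTAG line (5 higher and 1 lower), beside 5.39% of all genes, and 0 of 10 in the GPATCH1-dTAG line, beside 2.97%. In the fit without DHX35 DMSO 1 there were 6 of 10 in the GPATCH1-dTAG line, all lower, beside 8.41% of all genes, and none was called. The ribosomal RNA share moved with treatment in the same directions, from 3.15% and 1.54% with DMSO to 12% and 20.2% with dTAG-13 in the DHX35-dTAG line, and from 4.23% and 20.9% to 1.27% and 2.02% in the GPATCH1-dTAG line. The ratio of mitochondrial to member counts was highest, at 1.37 and 1.47, in the libraries with 20.2% and 20.9%. The part of the ribosomal share in these values was not tested. The mRNA mt-Nd1, for a core subunit of complex I, stood at 279, 1020, 1190, 1760, 1340, 1790, 805 and 1380 CPM, and treatments overlapped in the GPATCH1-dTAG line but not in the DHX35-dTAG line.

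Promoter windows of RefSeq on GRCm38.p6, 250 bases before to 50 after a start, were held for 77 of the 98 members. They were searched on both strands for the NRF1 core (GCATGCG), the ETS core (CCGGAAG), the YY1 core (AAGATGG) and the GC box (GGGCGG). The NRF1 core stood in the window of 14 members (18.2%) and of 4.01% of all 27025 genes with a window, the ETS core in 19 members (24.7%) and 9.93%, the YY1 core in 12 (15.6%) and 7.28%, and the GC box in 36 (46.8%) and 38.2%. Atp5j, Atp5k, Atp5l, Cox6a1, Sdhb and Uqcr11 held both the NRF1 and the ETS core (7.79% of members, 0.751% of genes). A match is a run of letters, not a bound site.

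Stretches before the start of 4 members are shown because the results turn on 3 of them and Cycs is the textbook NRF1 target. They lie between GENCODE exons, are written 5′ to 3′ on the strand of the gene, and carry the searched motifs in capitals. Cycs (chr6:50566570-50566642, minus strand) holds an NRF1 core read on both strands in overlapping letters, Atp5e (chr2:174464106-174464225, minus strand) an ETS core on the opposite strand and a GC box, Cox7a2 (chr9:79759879-79759998, minus strand) a GC box, and Cox6b2 (chr7:4753095-4753214, minus strand) none of the 4 motifs in the stretch shown. The whole searched windows of Cycs and Cox6b2 each hold a GC box that lies outside the stretch shown.
Cycs: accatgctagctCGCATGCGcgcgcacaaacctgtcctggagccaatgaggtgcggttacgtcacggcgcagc
Atp5e: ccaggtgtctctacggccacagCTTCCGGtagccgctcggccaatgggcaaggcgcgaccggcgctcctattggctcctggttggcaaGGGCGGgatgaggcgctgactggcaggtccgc
Cox7a2: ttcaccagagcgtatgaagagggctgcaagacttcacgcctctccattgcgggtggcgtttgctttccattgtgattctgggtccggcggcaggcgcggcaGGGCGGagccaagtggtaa
Cox6b2: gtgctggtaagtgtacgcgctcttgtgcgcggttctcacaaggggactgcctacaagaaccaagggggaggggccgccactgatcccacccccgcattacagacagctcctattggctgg

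The fitted differences of members with and without a core were set side by side as a description. In the DHX35-dTAG line the 19 tested members with an ETS core had a median log2 difference of -0.26 and the 56 without it -0.08, and without DHX35 DMSO 1 these medians were 0.03 and 0.05. For the NRF1 core they were -0.09 in the 14 members with it and -0.13 in the 61 without it, and these became 0.09 and 0.04 without DHX35 DMSO 1. In the GPATCH1-dTAG line these medians lay between -0.01 and 0.02.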

How the data were processed

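The authors trimmed paired reads with Trim Galore 0.6.6, aligned them with STAR 2.7.5c to mm10 and hg19, and deposited raw counts per gene for each of 8 libraries. The libraries were stranded, rRNA-depleted and made with human DLD-1 spike-in RNA, which was not used here. The counting program, annotation and strand setting are not given in the sources used here, so genes that overlap others (Atp5o, Ndufa13, Ndufaf2 and Ndufb6 by over 20% of their exonic bases) are uncertain, as are genes with near-identical pseudogenes. From the counts, edgeR 4.0.16 in R 4.3.3 was run with TMM normalization, filterByExpr, 1 term per group, the quasi-likelihood test and Benjamini-Hochberg adjustment over all genes tested (threshold 0.05). The line difference used line and treatment as terms. CPM are TMM-scaled, and SE is the log2 difference divided by the square root of F. DESeq2 1.42.0 was an alternative. The edgeR tests of the first and last comparisons were checked on simulated counts. All simulated libraries shared the same spread per gene, so a library set apart like DHX35 DMSO 1 was not covered. Transcripts came from GENCODE M21, which matched 53581 symbols. Named genes were the 3 largest rises and falls per comparison at a mean of at least 10 CPM, the 2 highest and the lowest per complex, any member called, and fixed isoform sets. One member that this rule names is not reported here. Others were named after their values were seen. Members and lists were chosen with earlier results of these data known.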

Additional observations from a re-analysis of the deposited data

Results flagged for a closer look

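Ndufa8, an accessory subunit of complex I, differed between the lines in direction. In the DHX35-dTAG line both dTAG-13 libraries (37.5 and 38.9 CPM) lay below both DMSO libraries (69.2 and 39.6 CPM), a log2 difference of -0.51 (SE 0.21). In the GPATCH1-dTAG line both dTAG-13 libraries (41.8 and 39.2 CPM) lay above both DMSO libraries (35.6 and 34.4 CPM), a difference of 0.21 (SE 0.21). The edgeR interaction test of this difference did not pass (0.72, SE 0.30, adjusted p = 0.86). Without DHX35 DMSO 1 the value in the DHX35-dTAG line was -0.05 and the interaction 0.26.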

How the results depend on the processing

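The count of members called and the median of members kept their reading in the GPATCH1-dTAG line under every alternative run, with 0 members called and medians of 0.01 to 0.02 when a library was left out. In the DHX35-dTAG line, leaving out each library in turn gave 0 to 54 members and medians of -0.27 to 0.05. The values 54 and -0.27 are those without DHX35 DMSO 2, when 4947 genes were called in all, and 0.05 is that without DHX35 DMSO 1. For the difference between the responses the range was 0 to 38 members and medians of -0.04 to 0.25, again set by the same libraries (38 and 0.25 without DHX35 DMSO 2, with 3588 genes in all, and -0.04 without DHX35 DMSO 1). For the line difference it was 0 to 3 members. There were 3 without DHX35 DMSO 1 (1013 genes in all) and 1 without DHX35 DMSO 2 (165 genes in all). With no expression filter, which tested 32642 genes, 10 members were called in the DHX35-dTAG line, 5 in the difference between responses and 7 in the line difference, beside 345, 140 and 920 genes. The line difference gave 1 member, Cox6b2, with DESeq2 and 1 with the length and GC trend removed, beside 227 and 317 genes against 128. Ndufb4 in the DHX35-dTAG line reversed to -0.11 without DHX35 DMSO 1 and was 1.07 without DHX35 DMSO 2. The replicate numbers were not taken as pairs, since the labels give them no shared origin. The correlations of same-numbered deviations were all above 0, from 0.0369 to 0.265, so shared variation between same-numbered libraries is not excluded. A fit with the replicate number as a block called 1 member, Cox6b2 (edgeR adjusted p = 0.038), in the line difference, beside 151 genes in all (0.922%). It called 0 members in the other comparisons, beside 2 genes in all in the difference between the responses and 0 in either line. The precision is limited by 2 libraries a group and a biological coefficient of variation of 11.2%. In the GPATCH1-dTAG line 127 genes, none of them members, were called when only its 4 libraries were fitted.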

Other observations

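The rule leaves out 14 symbols that contain -ps, of which most are near 0. Ndufb1-ps was the highest at 10.6 to 16.8 CPM, followed by Ndufs5-ps at 3.98 to 9.62 CPM and Ndufa12-ps at 5.31 to 7.5 CPM. Whether the counting split reads between Ndufs5-ps and Ndufs5 (6.33 to 9.28 CPM) was not tested.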
